A study of Mus musculus with 20 samples.

Results

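Untreated bone marrow-derived macrophages were followed through 16 h in serum-free medium, with no LPS added, and their messenger RNA at 8 and 16 h was compared with that at 1 and 2 h. The samples were 15 of the 20 arrays of the study: 7 early arrays (1 or 2 h) and 8 late arrays (8 or 16 h). They were taken by their labels, and this comparison was chosen with earlier results of these data known. The study hybridised untreated RNA of each genotype and time point against RNA of cells given 200 ng/mL LPS, and only the untreated Cy3 channel is the subject here. Bone marrow of C57BL/6 mice matched for age and gender was grown for 6 days with 10% FCS, 5% equine serum and 20% M-CSF-conditioned medium of an L929 line, replated, washed once and left in DMEM without serum. The cells were wild-type, MyD88 -/- (MyD88-KO), TRIF -/- (TRIF-KO) or MyD88/Trif -/- (double-KO). Wild-type, TRIF-KO and double-KO cells each gave 2 early and 2 late arrays. MyD88-KO cells gave 2 late arrays and 1 early array, that of 1 h, because untreated RNA was in Cy5 on their 2 h array. The 4 arrays of 4 h lie between the groups compared and are shown but not tested.

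M-CSF is the growth and survival factor of macrophages, and together with serum it keeps bone marrow-derived cells dividing. Genes of mitosis are transcribed late in the cell cycle and silenced when cells leave it. Serum also brings growth factors, bone morphogenetic proteins, lipids and hormones. MyD88 and TRIF are the adapters of Toll-like receptors: MyD88 also serves the interleukin 1 receptor family, and TRIF leads to interferon beta, which acts back on macrophages through its own receptor and raises a large set of antiviral genes.

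All values are log2 intensities, normalised between arrays, or differences of them, and each difference carries its standard error (SE). No Cy3 spot was saturated, 55.4% to 67.2% of spots on the arrays compared were well above background, and 20965 genes were tested. The 4 arrays of a genotype are different hours, and nothing in the labels tells whether they came from separate animals or cultures. What the p-values weigh is thus the scatter among these samples alone, and the number of arrays limits the precision. No hour was repeated within a genotype. For late against early this scatter therefore includes changes between the hours of a group and differences between genotypes in the change. Technical scatter, or scatter between animals or cultures, cannot be told apart from these. Ticam1, the gene of TRIF, read 10.65 ± 0.22 (SD, n = 4) in wild-type, 10.42 ± 0.05 (n = 3) in MyD88-KO and 7.28 ± 0.05 (n = 4) in double-KO cells. In the cells labelled TRIF-KO it read 10.78 ± 0.32 (n = 4), as in wild-type, and the label is therefore not seen in the RNA of its gene. Myd88 was bright in every genotype (lowest mean 14.02, in double-KO cells), and its probe shows no loss. Of 15 macrophage markers 14 were measured, their summed level was 19.95 to 20.15 early and 19.93 to 20.62 late, and 5 read higher and 2 lower. Of the other cell types searched for, only the list of mast cells, basophils and eosinophils moved between ranges that did not overlap, from 10.21 to 10.97 early to 11.16 to 13.94 late. That rested on Tpsb2, a tryptase, which rose by 2.27 ± 0.29 (adjusted p = 0.00011) on its brightest probe and read 0.26 on another kept one, while the defining Cpa3, Kit, Ms4a2 and Fcer1a were not above background. Of 12 neutrophil markers 5 read higher and 2 lower, with summed levels of 15.50 to 17.05 early and 15.64 to 17.14 late, and the part of either cell type in the results was not tested.

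A large part of the transcriptome differed between the early and late arrays of cells in serum-free medium. No array held cells kept in serum, so the part of serum removal or replating was not tested. With genotype as a block, 6290 of 20965 genes passed an adjusted p of 0.05 in limma's moderated test, or 30%. Of these, 3131 were higher late (14.9% of all genes) and 3159 lower (15.1%), and the median change of all genes was 0.00. The list and marker counts of late against early are to be read beside these shares. Tested within a genotype, 18.7% of genes passed in TRIF-KO cells, 7.99% in wild-type cells, 4.5% in double-KO cells and 2.73% in MyD88-KO cells, which have 1 early array. The early and late arrays of TRIF-KO cells, and those of MyD88-KO cells, lay on different slides. Lower levels were found for mitosis, DNA replication, clock genes and targets of bone morphogenetic proteins. Higher levels were found for interferon-stimulated genes, cytokines, antioxidant enzymes and genes of amino acid supply.

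**Figure D1:**
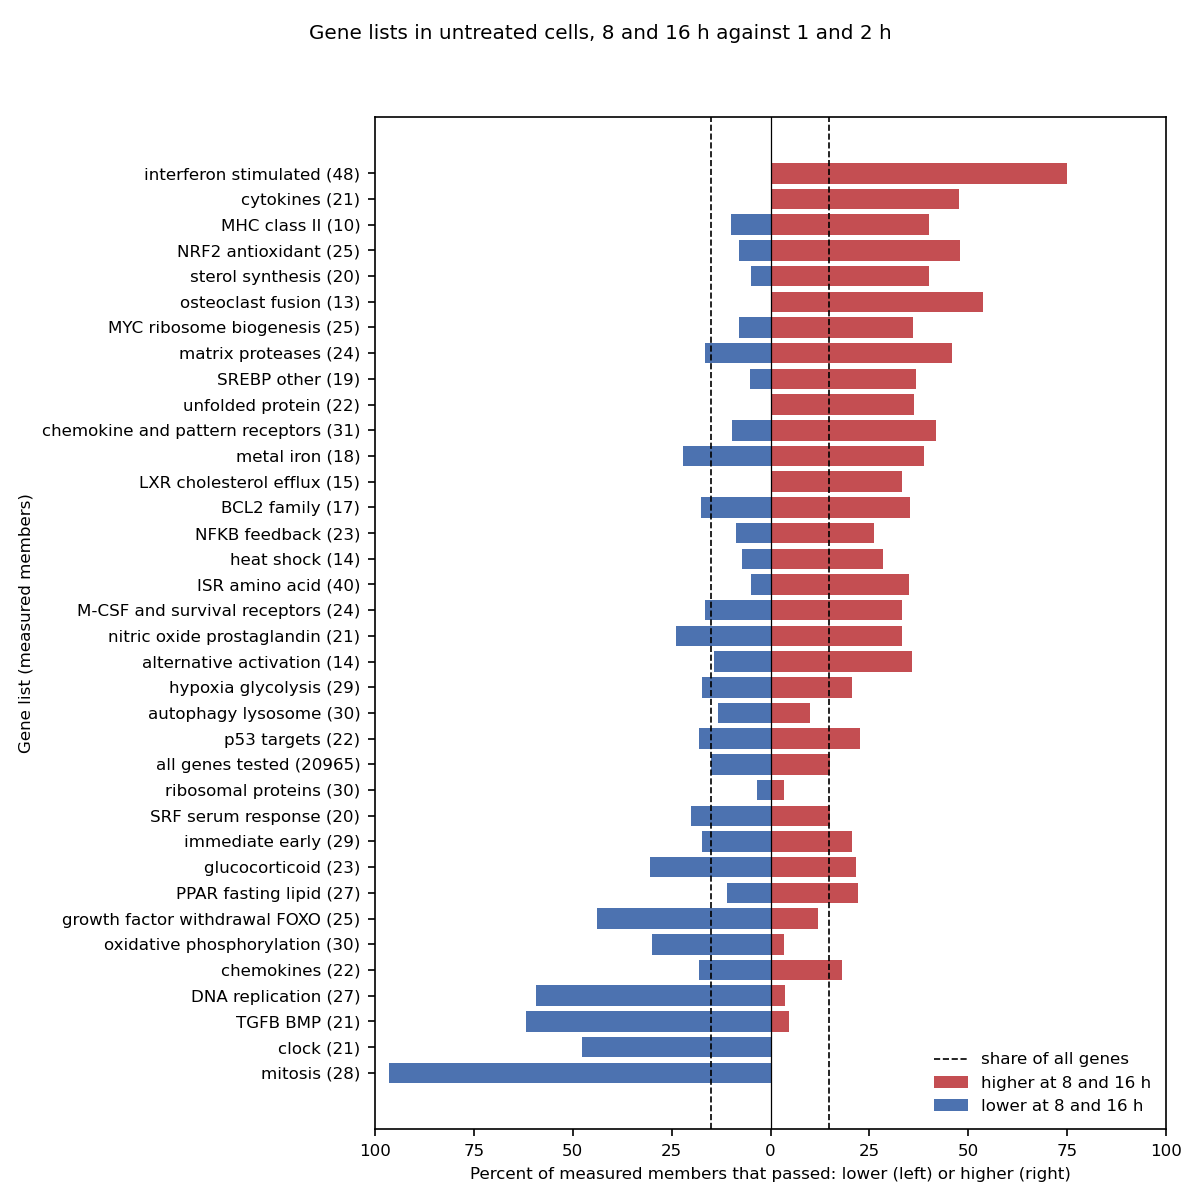
For each gene list (measured members in brackets), the percent of members that passed the test as higher (right, red) or lower (left, blue) at 8 and 16 h than at 1 and 2 h in untreated cells. Dashed lines mark the share of all genes, 14.9% higher and 15.1% lower; mitosis, TGFB and BMP, DNA replication and clock genes stand out on the lower side and interferon-stimulated genes on the higher side.

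The mitotic programme was the group with the largest fall. Of 28 mitosis genes measured, 27 fell and none rose, against 15.1% of all genes lower, and the median change was -2.60, against 0.00 for all genes. In 25 of the 28 no late array reached the level of any early array, as in 6.06% of all genes. By genotype this median was -2.41 in wild-type, -2.68 in TRIF-KO, -2.80 in double-KO and -2.53 in MyD88-KO cells. The fall was under way at 4 h (median -0.64 against the early mean), reached -1.82 at 8 h and -3.21 at 16 h. In these bulk samples fewer cycling cells and less RNA per cell cannot be told apart.

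Ccnb1 encodes cyclin B1, the partner of Cdk1 that drives entry into mitosis (probe at chr13:101548722-101548781, mm9). In wild-type cells it read 13.66, 13.48, 12.61, 11.97 and 9.30 at 1, 2, 4, 8 and 16 h. In TRIF-KO cells it read 13.63, 13.89, 13.33, 12.20 and 8.82 at the same hours, in double-KO cells 13.45, 13.52, 12.56, 10.69 and 8.64, and in MyD88-KO cells 13.23, 12.62, 11.12 and 8.99 at 1, 4, 8 and 16 h. All 7 early arrays thus lay above all 8 late ones, and the 16 h array was the lowest in each genotype. The fall was 9.9-fold (log2 -3.31 ± 0.54, adjusted p = 0.00058 in limma). Birc5, which encodes survivin, a subunit of the chromosomal passenger complex, fell by 3.81 ± 0.56, and Ccnb2, cyclin B2, fell by 3.59 ± 0.69. Kif20a, a kinesin of cytokinesis, fell by 3.51 ± 0.54 and Ccna2, cyclin A2, fell by 3.44 ± 0.47. Nusap1, of the spindle, changed by -3.45 and Cdca3 by -3.29. Aspm and Ska1, which also act at the spindle, and Pimreg fell too and are not on the list (-3.58, -3.40 and -3.42). Plk1, the polo-like kinase of mitosis, fell by 2.98, Mki67, the source of the Ki-67 antigen, by 2.83, and Foxm1, a transcription factor of G2 and M phase genes, by 2.07. Another kept probe of Foxm1 read -0.33. Aurkb, at -0.13, was the single member that did not pass.

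Many promoters of such genes hold a cell cycle homology region, the element through which mitotic genes are repressed outside G2 and M phase. The promoters below hold letters that match it, TTTGAA, in 2 genes of the group. Ccnb1, Plk1 and Birc5 were looked up as well, without a match. The letters TTTGAA were searched on both strands in the 250 bases before the start of each gene (RefSeq sequences, GRCm38.p6). Of the 28 mitosis genes 23 had a promoter sequence in this set and 9 of them held the letters (39.1%), against 18.3% of all 27025 genes with a promoter there. A match is a description of the sequence and not a shown binding site. The sequences run 5′ to 3′ along the gene's strand with the matched letters in capitals, Ccnb2 at chr9:70421672-70421761 (minus strand) and Cdc20, the activator of the anaphase-promoting complex, at chr4:118437344-118437401 (minus strand).
Ccnb2: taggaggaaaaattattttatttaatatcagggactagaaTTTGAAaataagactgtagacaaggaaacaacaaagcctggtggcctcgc
Cdc20: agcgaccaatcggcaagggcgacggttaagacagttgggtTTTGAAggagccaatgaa

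Genes of DNA replication fell less uniformly. Of 27 measured, 16 fell and 1 rose, with a median of -0.44. Rrm2, the small subunit of ribonucleotide reductase, and Tk1, thymidine kinase, each fell by 2.43 (SE 0.31 and 0.18), and Uhrf1, which maintains DNA methylation, by 1.55. The other kept probes of Tk1 read -1.37 and 0.02. Of the helicase subunits Mcm7 fell by 1.00 and Mcm5 by 0.58, while Mcm2 (0.46), Mcm3 (-0.29), Mcm4 (-0.33) and Mcm6 (0.17) did not pass. Pcna, the sliding clamp of the polymerases, was the member that rose: it read 15.20 to 15.88 on the early arrays and 16.28 to 17.20 on the late ones, a 2.27-fold rise (1.18 ± 0.18, adjusted p = 0.00032). Ccnd1, which encodes the G1 cyclin D1 and is on none of the lists, also rose. It read 10.44 to 11.55 early and 12.63 to 15.01 late, 7.62-fold higher (2.93 ± 0.33, adjusted p = 4.2e-05). On the same arrays LPS-treated TRIF-KO cells read 11.03 and 12.08 for Ccnd1 at 8 and 16 h, against 13.18 and 14.82 untreated, while in double-KO cells LPS-treated RNA read 12.76 and 14.42 against 12.63 and 14.53.

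**Figure D2:**
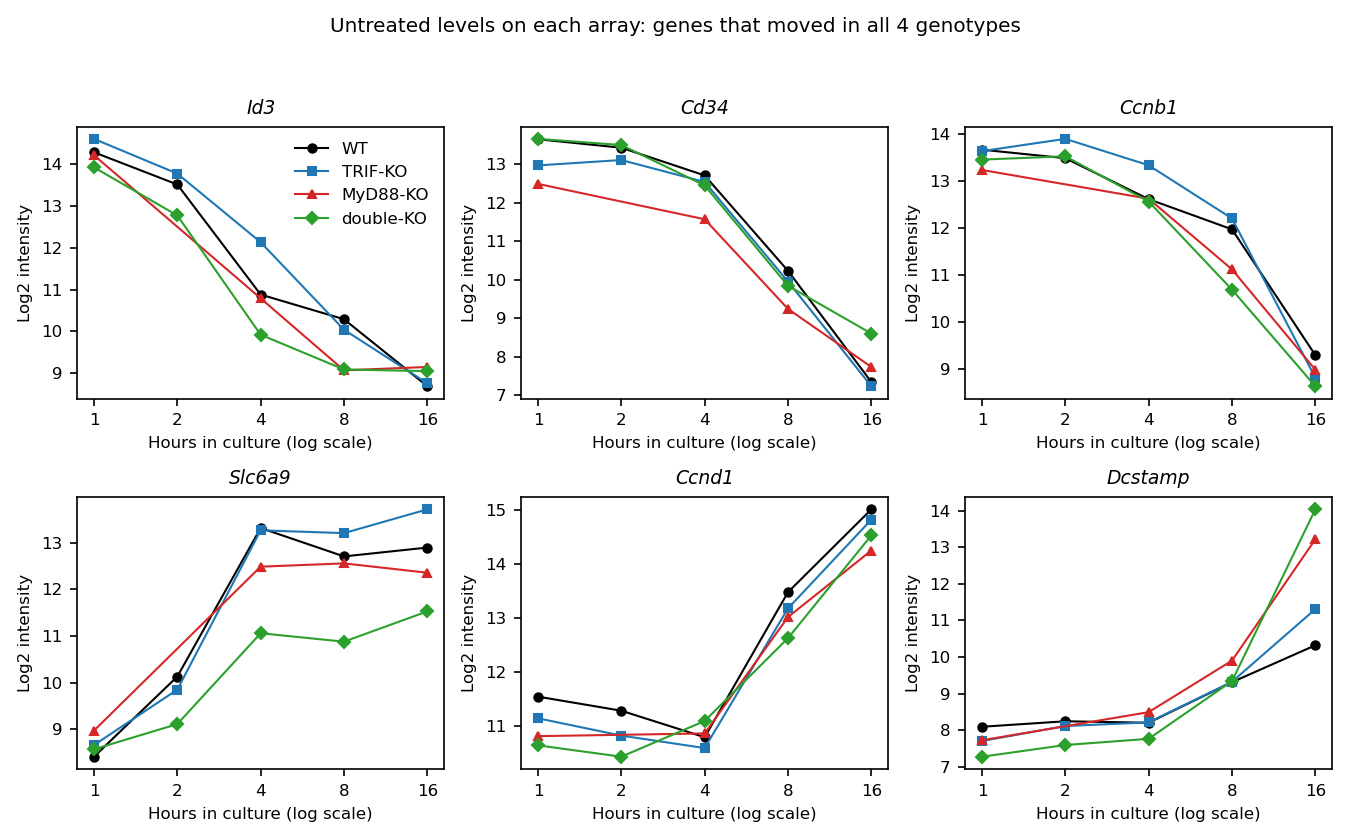
Log2 intensity of untreated RNA on each array against hours in culture (log scale) for Id3, Cd34, Ccnb1, Slc6a9, Ccnd1 and Dcstamp, 1 line per genotype, each point 1 array. Id3, Cd34 and Ccnb1 fall and the other three rise in every genotype; Ccnb1 falls from between 13.23 and 13.89 on the early arrays to between 8.64 and 9.30 at 16 h.

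The inhibitors of differentiation fell early and far. Id3, a target of bone morphogenetic proteins that blocks helix-loop-helix factors (probe from 135700075 to 135700249 on chromosome 4, mm9), read 12.77 to 14.60 on the early arrays, with a median of 13.92, and 8.69 to 10.29 on the late ones, with a median of 9.08. The groups did not overlap, and the fall was 24.2-fold (-4.60 ± 0.28, adjusted p = 6.7e-07), the largest among the genes named by rule. In wild-type cells Id3 had gone from 14.28 at 1 h to 10.88 at 4 h, and in double-KO cells from 13.92 to 9.92. Smad6, the inhibitory SMAD that the same pathway induces, fell 9.66-fold (-3.27 ± 0.18), Id1 6.42-fold (-2.68 ± 0.26) and Id2 by 1.87. Of 21 measured genes of TGF-beta and BMP signalling 13 fell and 1 rose, with a median of -0.49. The receptors differed, as Tgfbr1 fell by 0.96 while Tgfbr2 (0.20) did not pass. Smad7, the inhibitory SMAD of the TGF-beta branch, fell by 0.95, with 0.08 in double-KO and -2.36 in MyD88-KO cells, and neither genotype's difference passed (adjusted p = 0.19 and 0.48 in limma).

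Clock genes moved in the same direction in the output and repressor arms. Of 21 measured, 10 fell and none rose, with a median of -0.51. In 8 of the 21 early and late arrays did not overlap, as in 6.06% of all genes. Nr1d1, the heme-binding repressor REV-ERB alpha, read 8.96 to 10.29 early and 6.77 to 7.67 late and fell 5.91-fold (-2.56 ± 0.23, adjusted p = 9.9e-06); it was well above background on 5 of the 8 late arrays. Dbp, an output transcription factor, fell 5.55-fold (-2.47 ± 0.19), Per2 by 2.23 ± 0.22, Bhlhe40 by 1.95, Cry2 by 1.13 and Per1 by 1.09. Another kept probe of Per1 read 0.00. The activators Arntl (0.16) and Clock (-0.28) did not pass. The letters CACGTG, the E-box that the activators bind, stood in the 250 bases before the start of 5 of the 17 clock genes with a promoter sequence (29.4%), against 6.9% of all genes. Of 23 glucocorticoid-responsive genes 7 fell, among them Tgm2, a transglutaminase (-2.27 ± 0.19), and Klf9 (-1.76), and 5 rose, against 15.1% of all genes lower and 14.9% higher. Fkbp5 at 0.16 and Tsc22d3 at -0.28 did not pass. Of 25 genes of growth factor withdrawal that FOXO factors drive, 11 fell and 3 rose: Foxo3 itself fell by 1.62 ± 0.13 on its brightest probe, with -0.04 on another, and the ubiquitin ligase Fbxo32 by 1.54, while Txnip rose by 0.81 and Bcl6 by 1.12. Without the wild-type array of 2 or 8 h, the TRIF-KO array of 2 h or the double-KO array of 16 h, 7 of these 25 fell.

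Cd34, a sialomucin of haematopoietic progenitors, fell 21.5-fold (-4.43 ± 0.46, adjusted p = 2.2e-05). It read 12.49 to 13.66 at 1 and 2 h, 9.24 to 10.23 at 8 h and 7.23 to 8.60 at 16 h. It was well above background on 7 of the 8 late arrays.

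Interferon-stimulated genes were higher late in the untreated channel. LPS-treated RNA lay on the same arrays. Whether its signal or LPS itself had a part in the untreated levels of these genes or of Ifnb1 was not tested. Of 48 measured, 36 rose and none fell, against 14.9% of all genes higher, with a median of 0.92. The median was below the early mean at 4 h (-0.29), then 0.73 at 8 h and 1.04 at 16 h. It was 1.23 in wild-type and 1.25 in TRIF-KO cells against 0.61 in double-KO and 0.53 in MyD88-KO cells. No member had early and late arrays that did not overlap across genotypes. Irf7, the transcription factor that amplifies interferon production, rose 2.87-fold (1.52 ± 0.33, adjusted p = 0.004), Usp18, a brake on the interferon receptor, by 1.73, Cmpk2 by 1.72 and the GTPase Irgm2 by 1.67. Ifit1, which binds foreign RNA, rose by 0.95 ± 0.19 and Rsad2, the antiviral enzyme viperin, by 1.16 ± 0.31. Isg15 (0.34 ± 0.27, adjusted p = 0.38), Irf9 (0.07) and Ly6e (0.01) did not pass. Another kept probe of Isg15 read 1.69, so that gene is uncertain.

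Ifnb1 itself, interferon beta, rose by 2.33 ± 0.36 (adjusted p = 0.0004). In wild-type cells it read 7.50, 8.56, 9.07, 10.81 and 11.24 from 1 to 16 h, and in TRIF-KO cells 7.47, 7.66, 9.24, 11.08 and 11.55. In MyD88-KO cells it read 7.25, 8.73, 8.90 and 8.31 at 1, 4, 8 and 16 h, and in double-KO cells 6.86, 7.14, 7.71, 7.87 and 7.87. The late levels of wild-type and TRIF-KO cells stood above those of the other two genotypes, and 5 of 7 early arrays were well above background.

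The interferon response element core, searched as a pair of GAAA with any 2 bases between them on either strand, stood before the start of 16 of the 35 interferon-stimulated genes with a promoter sequence (45.7%), against 3.5% of all genes. The promoters of 4 members are shown as examples, with 2 matches in Ifit1, 3 overlapping ones in Isg15 and 1 each in Rsad2 and Cxcl10. Irf7 was looked up as well, without a match. Ifit1 and Rsad2 rose, while Isg15 and Cxcl10 did not pass on their brightest probes and read 1.69 and 1.31 on another kept probe. They lie at chr19:34640745-34640843 (Ifit1, plus strand), chr4:156200845-156200936 (Isg15, minus), chr12:26456523-26456612 (Rsad2, minus) and chr5:92349050-92349139 (Cxcl10, minus). The sequences are from RefSeq (GRCm38.p6), with matched letters in capitals.
Ifit1: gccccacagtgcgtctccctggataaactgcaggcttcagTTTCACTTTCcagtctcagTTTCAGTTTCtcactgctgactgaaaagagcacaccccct
Isg15: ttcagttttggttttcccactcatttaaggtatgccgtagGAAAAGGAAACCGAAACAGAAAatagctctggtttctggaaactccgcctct
Rsad2: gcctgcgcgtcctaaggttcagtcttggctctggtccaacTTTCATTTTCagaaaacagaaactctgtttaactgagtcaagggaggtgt
Cxcl10: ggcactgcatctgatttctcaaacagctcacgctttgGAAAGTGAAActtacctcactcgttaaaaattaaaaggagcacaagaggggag

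**Figure D3:**
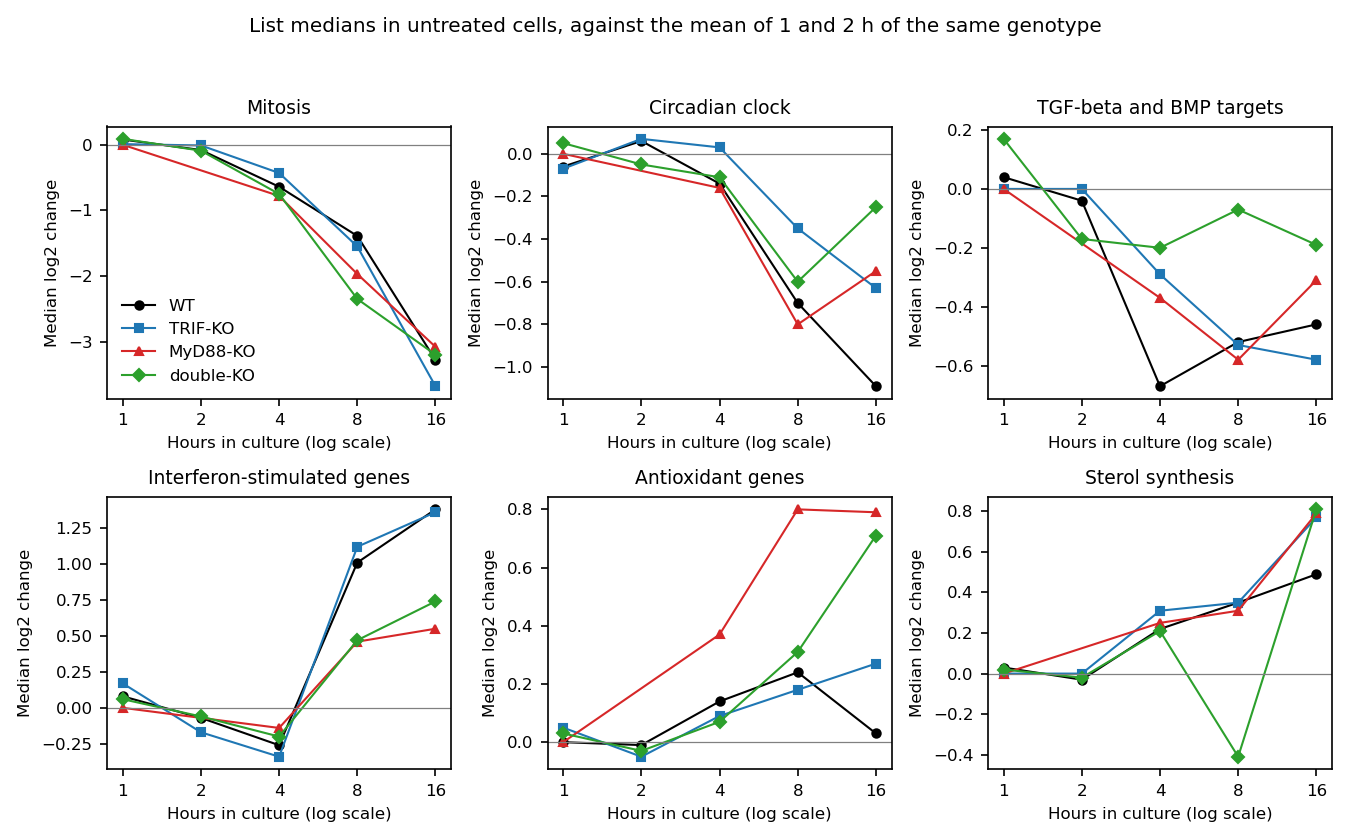
Median log2 change of the measured members of 6 gene lists on each array against the mean of the early arrays of the same genotype, by hours in culture (log scale) and genotype. Mitosis genes reach between -3.08 and -3.68 at 16 h in every genotype, while interferon-stimulated genes reach 1.38 and 1.36 in wild-type and TRIF-KO cells and 0.55 and 0.74 in MyD88-KO and double-KO cells.

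Some genes of amino acid supply rose. Slc6a9, a glycine transporter (probe at chr4:117541842-117541901, mm9), read 8.41 to 10.13 on the early arrays and 10.88 to 13.72 on the late ones. It rose 10.5-fold (3.39 ± 0.31, adjusted p = 9.9e-06), the largest rise among the genes named by rule, and at 4 h it already stood at 13.32, 13.27, 12.49 and 11.06 in wild-type, TRIF-KO, MyD88-KO and then double-KO cells. Phgdh, the first enzyme of serine synthesis, rose 4.27-fold (2.09 ± 0.26), Mthfd2, of mitochondrial one-carbon metabolism, by 1.90, and Asns, asparagine synthetase, by 1.79 ± 0.36. Of 40 measured genes of amino acid supply and the integrated stress response 14 rose and 2 fell, and 24 did not pass, with a median of 0.19. The median was 0.41 at 4 h, 0.18 at 8 h and 0.31 at 16 h, and by genotype it was 0.27 in wild-type, 0.42 in TRIF-KO, 0.06 in double-KO and 0.24 in MyD88-KO cells. The tRNA synthetases divided, as Mars1 (1.04), Eprs (0.93), Aars (0.90), Cars (0.81), Iars (0.55) and Wars (0.54) rose while Gars (0.31), Lars (0.17), Nars (-0.31), Sars (0.07), Tars (0.32) and Yars (0.06) did not pass. The stress factors Atf4 (-0.35), Ddit3 (0.07) and Chac1 (0.02) did not pass, and Ppp1r15a, which ends the stress response, fell by 0.77.

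Antioxidant genes, targets of NRF2, rose in 12 of 25 cases and fell in 2, with a median of 0.46. The medians were 0.15 in wild-type and 0.23 in TRIF-KO cells against 0.58 in double-KO and 0.79 in MyD88-KO cells. Nqo1, a quinone reductase, read 9.39 to 10.25 early and 10.72 to 12.18 late, a 3.0-fold rise without overlap (1.58 ± 0.18, adjusted p = 5e-05). Hmox1, haem oxygenase, rose 2.2-fold (1.14 ± 0.17), Gclm, a subunit of the enzyme that begins glutathione synthesis, by 1.11 ± 0.25, and Txnrd1, thioredoxin reductase, by 0.81 ± 0.24. Gpx1, a glutathione peroxidase, fell by 0.72. The metallothioneins Mt2 and Mt1, which bind zinc, fell by 1.97 ± 0.34 and 1.12 ± 0.15, and Tfrc, the transferrin receptor, rose by 1.06 ± 0.24.

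Sterol genes rose by small amounts. Of 20 enzymes of sterol synthesis 8 rose and 1, Tm7sf2, fell (-0.77), with a median of 0.45. Hsd17b7 rose by 1.16 ± 0.26, Lss by 1.07 ± 0.22, Idi1 by 0.85, Sqle by 0.83 ± 0.28 and Hmgcs1 by 0.68 ± 0.16. Hmgcs1 read -0.04 on another kept probe, and Hsd17b7 0.06 and 0.85. Without the wild-type arrays 3 of these 20 enzymes rose, without the TRIF-KO arrays 2, and without the TRIF-KO 16 h array alone 5. Abcg1, the cholesterol exporter that LXR induces, rose 2.36-fold (1.24 ± 0.13), with no overlap between early and late arrays.

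Cytokines were higher late in the untreated channel, and a part of the LPS channel's signal or of LPS itself was not tested here either. Of 21 cytokines 10 rose and none fell, with medians of 0.50 in wild-type, 1.09 in TRIF-KO, 0.21 in double-KO and 0.12 in MyD88-KO cells. The gene of interleukin 1 beta, Il1b, rose by 1.78 ± 0.38, the decoy Il1rn by 1.30 ± 0.32, Il10 by 1.13 ± 0.28 and Tnfsf15 by 1.79 ± 0.22. Tnf was at -0.30 ± 0.39 and did not pass. Il6 rose by 1.03 ± 0.33, but it was well above background on 5 of 7 early and 6 of 8 late arrays only. Of 22 chemokines 4 rose (Cxcl9, Ccl5, Ccl8 and Ccl12) and 4 fell, led by Cxcl14 (-1.93). These counts are near the shares of all genes, 14.9% higher and 15.1% lower. Of 31 chemokine and pattern receptors 13 rose and 3 fell, among the former Cd36, a scavenger receptor (1.44 ± 0.25), Marco (1.35) and Tlr4 (0.42), and among the latter Tlr2 (-0.61) and Cx3cr1 (-0.91). Without the TRIF-KO arrays 5 cytokines and 6 of these receptors rose, and without the wild-type arrays 5 of these receptors. Cfb, complement factor B, rose 7.61-fold (2.93 ± 0.37), Il4i1, an amino acid oxidase, 6.55-fold, and Nos2, the inducible nitric oxide synthase, 5.79-fold. Mmp12, the macrophage elastase, rose 4.23-fold (2.08 ± 0.48). Among the other genes named by rule, Efr3b rose by 2.84 ± 0.23, Npas4, a transcription factor known from neurons, by 2.53 ± 0.27, and Scimp, a transmembrane adaptor, by 2.48 ± 0.24.

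Ribosomal proteins and oxidative phosphorylation served as housekeeping groups. Of 30 ribosomal proteins 1 rose and 1 fell, with a median of 0.00, but 13 rose and none fell with the scanner software's processed signal. Of 30 genes of oxidative phosphorylation 9 fell and 1, Cycs, rose, with a median of -0.21.

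Arrays lay 4 to a slide on 5 slides, so slide and time were partly mixed over all genotypes and wholly mixed within 2 of them. The early TRIF-KO arrays lay on slide 2 and the late ones on slide 3. The early MyD88-KO array lay on slide 3 and scan day 1, and the late ones on slide 4 and scan day 2. Within these 2 genotypes time cannot be told apart from slide, nor within MyD88-KO cells from scan day. A fixed slide term left 1258 genes (6.00%) past the threshold, and the medians read -2.07 for mitosis, 0.88 for interferon-stimulated genes, -0.26 for TGF-beta and BMP targets and -0.76 for clock genes. Their calls fell to 6 of 28 mitosis genes, 7 of 27 of DNA replication, 20 of 48 interferon-stimulated genes, 5 of 21 TGF-beta and BMP targets, 2 of 21 cytokines, 6 of 25 antioxidant genes, 4 of 40 of amino acid supply, 1 of 31 receptors and 0 of 20 sterol enzymes, while 9 clock genes were lower and 1 higher. Of the 24 genes named by rule for this comparison 9 kept their call there, namely Slc6a9, Ccnd1, Cfb, Efr3b, Il4i1, Npas4, Scimp, Id3 and Cd34, and the other 15 did not (Birc5 at -2.93, adjusted p = 0.13). Within the first slide the wild-type array of 8 h against those of 1 and 2 h gave medians of -1.39 for mitosis and 1.01 for interferon-stimulated genes. Within the fifth the double-KO arrays of 8 and 16 h against that of 2 h gave -2.81 and 0.69. TGF-beta and BMP targets were at -0.05 there and at -0.52 on the first slide.

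Between 8 and 16 h the changes went on for a smaller number of genes. In limma's test 552 of 20965 genes passed, or 2.63%, with 151 higher (0.72%) and 401 lower (1.91%) at 16 h. Mitosis genes fell further, with 21 of 28 lower, none higher and a median of -1.45, and 7 of the 8 genes named by rule as lower are on that list, all but Aspm: Ccnb2 (-3.31, adjusted p = 8.8e-05), Aspm (-3.19), Birc5 (-2.60), Cdca3 (-2.57), Ccnb1 (-2.56), Kif20a (-2.55), Cdc20 (-2.50) and Ube2c (-2.47). Genes of the unfolded protein response were higher at 16 h in 9 of 22 cases and lower in none, with a median of 0.51, for example Creld2 (0.91), Manf (0.82) and Hspa5, the chaperone BiP (0.66). Of 19 further targets of SREBP factors 5 were higher, led by Scd1, which makes monounsaturated fatty acids (1.83, adjusted p = 0.00054). H2-Aa, of MHC class II, was 1.32 higher, Plau, the urokinase, 1.27, Ccnd1 1.57, Igf2bp2 1.44, Cyp2s1 1.71 and Ak4 1.74.

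Dcstamp, which macrophages need to fuse into multinucleated cells, had the largest rise from 8 to 16 h of the genes that passed (2.76, adjusted p = 0.035). It read 8.09, 8.24, 8.20, 9.31 and 10.32 in wild-type cells from 1 to 16 h and 7.70, 8.11, 8.21, 9.32 and 11.31 in TRIF-KO cells. In MyD88-KO cells it read 7.72, 8.49, 9.90 and 13.22 at 1, 4, 8 and 16 h, and in double-KO cells 7.27, 7.59, 7.76, 9.34 and 14.04 from 1 to 16 h. The 16 h levels were thus lowest in wild-type, then TRIF-KO, then MyD88-KO and highest in double-KO cells, but each is a single array, and the differences in its change between genotypes did not pass (adjusted p = 0.71 for MyD88-KO and 0.84 for double-KO). Of 13 genes of osteoclasts and cell fusion 7 rose and none fell over the whole time, among them the integrin subunit Itgb3 (1.06).

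The count of genes between 8 and 16 h rested on single arrays. It was 131 without the TRIF-KO array of 8 h, 144 without that of wild-type, 165 without that of double-KO, 179, 281, 311 and 316 without the 16 h array of TRIF-KO, wild-type, double-KO and MyD88-KO cells, and 349 without the wild-type array of 2 h. Of the 16 named genes 14 passed without each array in turn, and Dcstamp and Ak4 did not.

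The change in MyD88-KO cells was compared with the mean change of wild-type and TRIF-KO cells, which both carry a MyD88 gene by label. In limma's test 174 of 20924 genes differed (0.832%), 23 with a more positive (0.11%) and 151 with a more negative change (0.722%) in MyD88-KO cells, and 3405 had an unadjusted p under 0.05. No mitosis, clock, or TGF-beta and BMP gene was among them. Of 48 interferon-stimulated genes 7 had a more negative change (Cxcl10, Rsad2, Gbp3, Cmpk2, Irf1, Igtp and Ifih1) and 1 a more positive one (Cxcl9), with a median difference of -0.64. Another kept probe read -0.30 for Irf1 and 0.13 for Ifih1.

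Cxcl10, a chemokine of T cells (probe at chr5:92775781-92775840, mm9), differed by -4.69 ± 0.31 (adjusted p = 0.00054) on its brightest probe, while another kept Cxcl10 probe gave a difference of -0.16. The levels that follow are of the brightest probe. In wild-type cells it read 15.02, 14.81, 12.73, 17.23 and 17.24 from 1 to 16 h, and in TRIF-KO cells 15.72, 15.84, 14.86, 17.13 and 17.65. In MyD88-KO cells it began alike, at 14.95, and then read 11.71, 12.01 and 12.45 at 4, 8 and 16 h. It was therefore lower late than early in MyD88-KO cells and higher late in the other genotypes, with 13.46 and 13.47 early and 14.88 and 14.35 late in double-KO cells. LPS-treated MyD88-KO cells on the same arrays read 16.31, 18.63 and 18.78 at 1, 8 and 16 h. Cxcl9, a related chemokine, went the other way (3.15 ± 0.51, adjusted p = 0.03): in MyD88-KO cells it went from 8.23 at 1 h to 13.27 and 12.28 at 8 and 16 h, where the wild-type arrays read 10.88 and 10.57. The LPS-treated MyD88-KO cells read 17.93 and 17.18 there.

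Lcn2, the iron-scavenging lipocalin (-4.61 ± 0.68), and Saa1, an acute phase protein (-4.32 ± 0.57), rose in wild-type and TRIF-KO cells and stayed nearly level in MyD88-KO cells. Saa1 went from 10.58 and 10.92 early to 14.86 and 13.45 late in wild-type cells and from 9.58 on both early arrays to 15.43 and 15.92 in TRIF-KO cells. In MyD88-KO cells it read 9.03 early and 9.17 and 9.75 late. The LPS-treated cells on the same arrays read 18.28 and 18.24 in wild-type and 13.15 and 14.03 in MyD88-KO cells at 8 and 16 h; whether signal of the LPS channel or LPS itself had a part in the untreated levels was not tested. Ccl7, a chemokine of monocytes (-3.44), Tagln, an actin-binding protein (-4.17), Hivep3 (-4.04, with 0.33 on another kept probe), Iqsec3 (-3.86) and Gm8909 (-3.73) also had a more negative change. More positive changes were found for Tspan33 (2.47 ± 0.35), Gadd45a, a stress gene of growth arrest (1.93 ± 0.33), Frat2 (1.65), Slbp, the histone mRNA binding protein (1.53), Rassf2 (1.48), Dtx4 (1.45) and Wsb1 (1.44).

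This comparison rests on 1 early MyD88-KO array, which lay on another slide and scan day than the late ones. The difference thus cannot be told apart from an effect of slide or scan day. The count fell to 14 and 18 without the MyD88-KO arrays of 8 and 16 h, to 39, 77 and 82 without the TRIF-KO arrays of 16, 8 and 2 h, to 49, 58 and 64 without the wild-type arrays of 1, 2 and 8 h, and to 60 without either late double-KO array, and it was 330 without the wild-type array of 16 h and 636 without either early double-KO array. Of the 16 named genes Cxcl10 and Iqsec3 passed without each other array in turn. The MyD88-KO array of 1 h, the only early one, could not be left out. With the untreated Cy5 channel of the MyD88-KO 2 h array added, 4.82% of genes passed and Cxcl10 read 14.36 there. With the scanner software's processed signal, 22 did, 10 more positive and 12 more negative.

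Double-KO cells were compared with the same wild-type and TRIF-KO arrays, so the 2 comparisons share them. As the early TRIF-KO arrays lay on slide 2 and the late ones on slide 3, this difference too cannot be told apart from an effect of slide. In limma's test 62 of 20951 genes differed (0.296%), 6 with a more positive (0.0286%) and 56 with a more negative change (0.267%) in double-KO cells, and 1795 had an unadjusted p under 0.05. Saa1 differed by -4.64 ± 0.49 (adjusted p = 0.0074) and Lcn2 by -4.14 ± 0.59. Saa1 read 8.61 and 8.15 early and 8.29 and 8.69 late in double-KO cells, and the LPS-treated double-KO cells read 8.62, 8.17, 8.23 and 8.54 at the same hours. Nos2 differed by -2.92 ± 0.37 (adjusted p = 0.013): it went from 8.29 and 8.04 early to 12.49 and 11.73 late in wild-type cells and from 8.02 and 8.23 to 8.60 and 8.73 in double-KO cells. In MyD88-KO cells Nos2 went from 8.47 to 11.66 and 10.73, and its difference there did not pass (-0.74 ± 0.43, adjusted p = 0.44). Fpr1, a receptor for bacterial peptides, differed by -2.52 ± 0.22 in double-KO and by -2.57 in MyD88-KO cells, and Ifnb1 by -2.51 ± 0.40 in double-KO cells, where it was well above background on 2 of 4 arrays. Il10 (-2.07) and Tnfsf10, the death ligand TRAIL (-1.32), were the other cytokines with a more negative change.

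Gadd45a fell in wild-type cells from 12.97 and 12.94 early to 11.09 and 10.56 late, and in TRIF-KO cells from 12.85 and 12.83 to 11.51 and 10.81. In double-KO cells it read 11.91 and 12.02 early and 11.91 and 12.12 late, so that the change differed by 1.95 ± 0.28 (adjusted p = 0.025). Klf11 (1.57), Sohlh2 (1.19), Dtx4 (1.14), Tmem181b-ps (1.13) and Cramp1l (0.84, with -0.17 on another kept probe) were the other genes with a more positive change. Among mitosis genes Tpx2, a spindle assembly factor, had a more negative change in double-KO cells (-2.14, adjusted p = 0.036). Interferon-stimulated genes had a median difference of -0.51 with 1 of 48 past the threshold, Cmpk2 (-1.82).

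The count was 5, 12 and 15 without the double-KO arrays of 2, 8 and 16 h. It was 36 without the TRIF-KO array of 1 or 16 h or the wild-type array of 1 or 2 h, 39 without the TRIF-KO array of 2 h or the wild-type array of 8 h, and 41 without either late MyD88-KO array. Of the 14 named genes Iqsec3 and Fpr1 passed without each array in turn, but the fit was not run without the MyD88-KO array of 1 h. With the processed signal 19 genes passed, 4 more positive and 15 more negative.

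**Figure D4:**
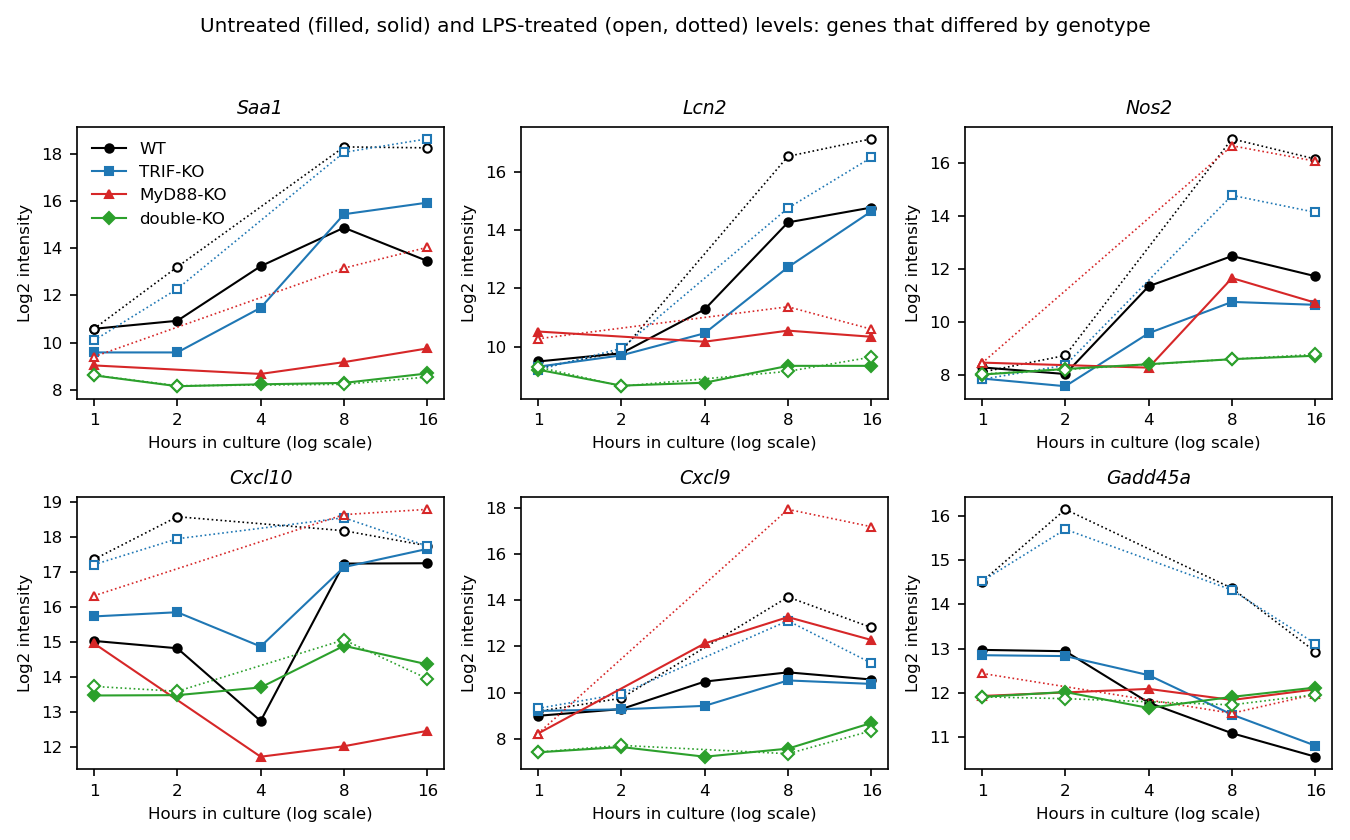
Log2 intensity of untreated RNA (filled symbols, solid lines) and of LPS-treated RNA on the same arrays (open symbols, dotted lines; 4 h not drawn) against hours in culture (log scale) for 6 genes whose untreated change differed by genotype. Untreated Saa1 reaches 15.92 in TRIF-KO cells and 8.69 in double-KO cells at 16 h, and untreated Cxcl10 lies at 12.45 in MyD88-KO cells against 17.24 in wild-type cells.

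For 4 genes, chosen after their values were seen, wild-type and TRIF-KO arrays stood below the others at 1 h. They are examples of a larger group. At a threshold of 2 against the same genotype's later level, 16 of 20965 genes were low at 1 h in wild-type and TRIF-KO cells. The MyD88-KO and double-KO levels stayed within 1, and 1 gene was high. Not all of the low genes stood below the other genotypes at 1 h. Saa3 read 12.23 and 10.92 in wild-type and TRIF-KO cells against 10.32 and 7.57 in MyD88-KO and double-KO cells. Gfi1 read 7.47 in both against 8.08 and 7.63. The same search for MyD88-KO and double-KO cells gave 0. Hcn2 was another case, with 13.18 and 12.87 at 1 h in wild-type and TRIF-KO cells against 15.15 and 14.86 in MyD88-KO and double-KO cells. Syt10, a synaptotagmin, read 8.87, 10.59, 13.38, 13.61 and 13.47 from 1 to 16 h in wild-type cells and 8.76, 11.09, 14.31, 15.11 and 15.14 in TRIF-KO cells. In MyD88-KO cells it already read 13.35 at 1 h and 14.31, 14.71 and 14.11 from 4 to 16 h, and in double-KO cells 13.75 at 1 h and 14.93, 14.46, 14.34 and 14.84 after that. The rise by rule (2.72 ± 0.65, adjusted p = 0.0066) was thus a rise in wild-type and TRIF-KO cells, and within the fifth slide, which holds double-KO arrays, the change was -0.34. Gfra4, a receptor of the GDNF family, was alike, with 11.53 and 11.01 at 1 h in wild-type and TRIF-KO cells against 16.44 and 16.25 in MyD88-KO and double-KO cells, a rise of 2.57 ± 0.69 over all genotypes and -0.01 within the fifth slide. The other 3 kept probes of Gfra4 showed neither, with changes of -0.29, -0.20 and -0.51 and genotype differences between -0.14 and 0.26. Iqsec3 and Teddm2 followed the same course and passed in both comparisons of genotypes, Iqsec3 with -3.86 and -3.26 and Teddm2 with -3.35 and -3.02.

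**Figure D5:**
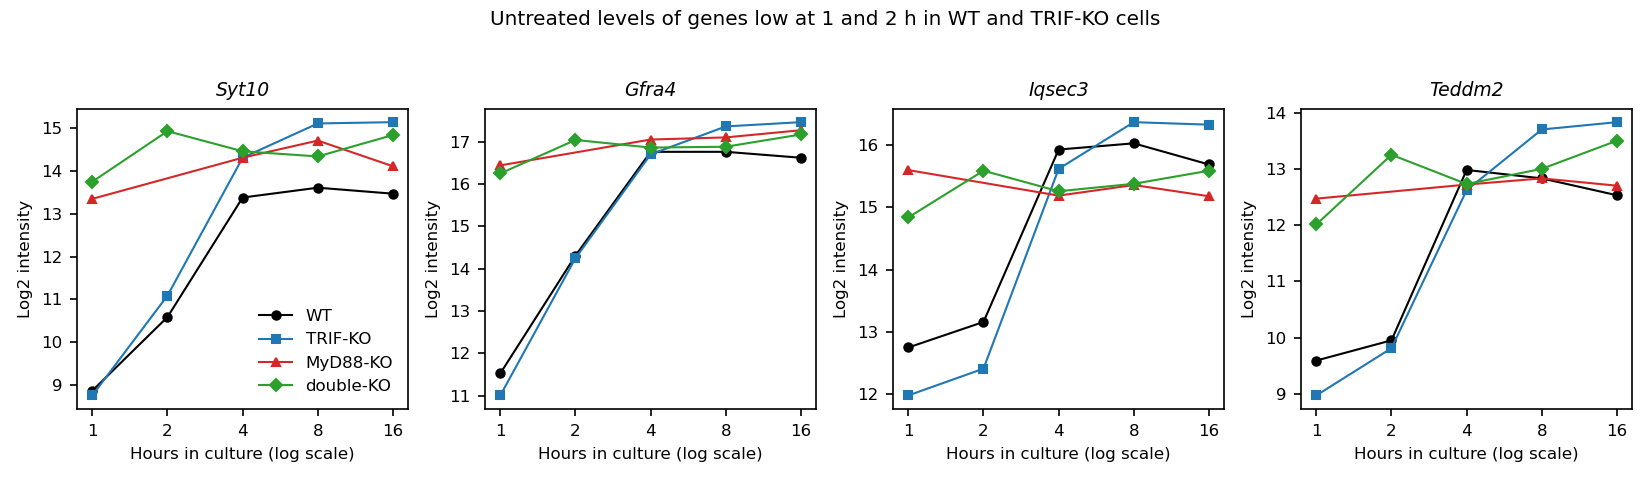
Log2 intensity of untreated RNA on each array against hours in culture (log scale) for Syt10, Gfra4, Iqsec3 and Teddm2. At 1 h the wild-type and TRIF-KO arrays lie below those of MyD88-KO and double-KO cells in all 4 genes, Syt10 at 8.87 and 8.76 against 13.35 and 13.75.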

How the data were processed

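RNA of 20 two-colour Agilent arrays was measured, and 15 entered the tests. Per the labels' protocols RNA was extracted with TRIzol. Per the file headers the deposited intensities are mean pixel intensities of each spot with the median of its local background, from Agilent Feature Extraction 10.10.1.1, and the software's processed intensities are background-subtracted and dye-normalised by it. The deposited value table of log ratios was not used here, and no column of other samples was used.

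Mean intensities were background-corrected with normexp (offset 50), normalised by loess within arrays and Aquantile between arrays, and taken as log2 of each channel. A probe was kept if well above background in Cy3 on at least 3 of the 15 arrays (27023 of 39429), and a gene was its brightest kept probe. Of 4825 genes with several kept probes, the other probes can differ: a probe of opposite sign was found for 348 of 1787 such genes that passed in late against early, 14 of 39 in the MyD88-KO difference, 3 of 17 in the double-KO difference and 26 of 179 in 16 against 8 h. Probe names came from the design's accession or symbol matched to RefSeq, and otherwise from the files. Tests used limma 3.58.1 in R 4.3.3 (lmFit, eBayes, two-sided, Benjamini-Hochberg over all genes, threshold 0.05), tested on simulated data. Of the tested genes 198 had a missing value, and the comparisons of MyD88-KO and double-KO changes leave out 41 and 14 genes that could not be fitted.

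The genes named by rule are, for the shared comparison, the 12 largest rises and 12 largest falls with one sign in all genotypes, and for the others the 8 largest in each direction. The 35 gene lists and 8 marker lists, like the samples compared, were chosen with earlier results of these data known. Same-hour arrays carried a common replicate number: the change from 1 to 2 h correlated at 0.83 between wild-type and TRIF-KO cells but at 0.04 and 0.01 with double-KO cells, and the change from 8 to 16 h at 0.33 to 0.6 between all genotypes. As not every correlation was over 0.1, the numbers were not taken as pairs. The alternatives were another normalisation, background correction, filter, probe summary, variance model and block (slide, scan day, hour), the added Cy5 channel, and leaving out each array or genotype. Some single genes of the lists are counted in them but not reported here.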

Additional observations from a re-analysis of the deposited data

Results flagged for a closer look

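Changes over time that differed between genotypes in limma's test of the difference are listed here on that test alone, and the MyD88-KO and double-KO differences share the wild-type and TRIF-KO arrays. For MyD88-KO against wild-type and TRIF-KO cells the more positive changes were those of Cxcl9 (3.15), Tspan33 (2.47), Gadd45a (1.93), Frat2 (1.65), Slbp (1.53), Rassf2 (1.48), Dtx4 (1.45) and Wsb1 (1.44). The more negative ones were those of Cxcl10 (-4.69), Lcn2 (-4.61), Saa1 (-4.32), Tagln (-4.17), Hivep3 (-4.04), Iqsec3 (-3.86), Gm8909 (-3.73) and Ccl7 (-3.44). Another kept probe read -0.16 for Cxcl10 and 0.33 for Hivep3. For double-KO cells the more positive changes were those of Gadd45a (1.95), Klf11 (1.57), Sohlh2 (1.19), Dtx4 (1.14), Tmem181b-ps (1.13) and Cramp1l (0.84, with -0.17 on another kept probe). The more negative ones were those of Saa1 (-4.64), Lcn2 (-4.14), Iqsec3 (-3.26), Teddm2 (-3.02), Nos2 (-2.92), Fpr1 (-2.52), Ifnb1 (-2.51) and H2bfm (-2.44). H2bfm, like Iqsec3 and Teddm2, differed through its early levels. It read 7.9 and 8.05 early in wild-type and 8.18 and 8.69 in TRIF-KO cells, against 9.85 and 10.57 in double-KO cells. On the late arrays of all genotypes it read 10.26 to 11.05.

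A single array stood far from the other early arrays for 2 genes. The MyD88-KO array of 1 h read 13.51 for Rassf2, where the nearest other early array read 14.15, and 10.59 for Wsb1, where the nearest read 11.92. Chance alone sets apart about 1 in 20 such groups, and 110 groups of 55 genes were examined.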

How the results depend on the processing

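Values are percents of genes tested that passed, against 30% for late against early, 2.63% for 16 against 8 h, 0.832% for the MyD88-KO and 0.296% for the double-KO difference. All 24 genes named for late against early kept direction and call under the other normalisations, background correction, filters, variance model and random slide block. With the mean of kept probes 23 did. Scan day as a fixed block gave the same 6315 genes as leaving out the MyD88-KO array of 1 h. That array alone was scanned on another day than the rest of its genotype, so this block cannot show whether scan day matters. Slide as a fixed block gave 6.00% (1258 genes) for late against early and 5.11% (1071) for 16 against 8 h, and as a random block 6.24% (1308) for 16 against 8 h and 1.45% (304) for the MyD88-KO difference. Late against early gave 18.8% (3945) without wild-type and 19.6% (4112) without TRIF-KO cells. The processed signal gave 0.105% (22 genes; 10 more positive, 12 more negative) for the MyD88-KO and 0.0907% (19; 4 and 15) for the double-KO difference, and adding the Cy5 array gave 4.82% (260 more positive, 750 more negative) and 0.473% (99). With the hour, which is the replicate number, as a replicate block, 7223 genes passed for late against early, 6.77% (1416) for the MyD88-KO and 1.68% (353) for the double-KO difference. No paired analysis was possible for 16 against 8 h because the hours are the groups. Leaving out each array gave 25% to 30.1% for late against early, 0.0669% to 3.04% for the MyD88-KO difference, 0.0239% to 0.382% for the double-KO difference and 0.625% to 3.45% for 16 against 8 h. Reversed values were Syt10 at -0.34 and Gfra4 at -0.01 within slide 5 (double-KO), and the medians of LXR targets at -0.01 and of the unfolded protein response at -0.07 within slide 1 (wild-type). The cause of these shifts was not tested. The genotype differences with slide or scan day as a fixed block were not run, because they could not be fitted. These differences were also not run without the MyD88-KO array of 1 h. Signal over background limits low genes such as Ifnb1, Il6 and Nr1d1.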

Other observations

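Apart from the groups described so far, Srm, spermidine synthase, rose by 1.39 ± 0.20 in limma's test, with 9 of 25 genes of ribosome biogenesis and MYC targets higher and 2 lower (median 0.36). Of 10 MHC class II genes 4 rose, among them H2-Ab1 (1.34 ± 0.25) and Cd74, the invariant chain (1.27 ± 0.32), and H2-Oa fell by 0.71. Double-KO cells had a median of 1.13 for this list and MyD88-KO cells 0.02, and no member's difference between genotypes passed. Of 17 genes of the BCL2 family 6 rose and 3 fell, against 14.9% of all genes higher and 15.1% lower. Bcl2l1, which protects from apoptosis, was at 1.05 ± 0.20. Klf4, a transcription factor of macrophage differentiation, fell by 1.96 ± 0.18.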
